A study of Mus musculus with 16 samples.

Results

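Kit and Cd34, which encode 2 surface proteins of blood stem and progenitor cells, were followed through the H3K27ac maps of 4 mouse cell types on the way to dendritic cells. A region was taken when it overlapped chr5:75890000-76060000 for Kit, a gene lying at about 75971000 to 76053000, or chr1:196755000-196800000 for Cd34 (all mm9). This gave 29 of the 273958 regions in the authors' 4 deposited lists, 14 at Kit and 15 at Cd34. The cells were multipotent progenitors (MPP), common dendritic cell progenitors (CDP), classical (cDC) and plasmacytoid (pDC) dendritic cells of C57BL/6 mice, with 2 H3K27ac libraries each. The labels name no genotype, treatment, age, sex or culture for any group. Nothing in them says that the 2 libraries came from separate animals. The p-values therefore measure only spread between libraries, drawn in part from all regions of a list, which may be technical. Each library comes from a sorted population, and fewer acetylated cells and less acetylation per cell cannot be told apart. Since gene positions in mm9 were not used here beyond these windows, the labelled cell types were not checked against marker genes, and no other gene of the Kit pathway was placed.

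Kit is the receptor tyrosine kinase for stem cell factor, and its signal supports the survival and division of stem and progenitor cells. CD34 is a heavily glycosylated sialomucin that is used to mark early blood progenitors. MPP precede CDP, and CDP give rise to both cDC and pDC. H3K27ac, acetylation of lysine 27 of histone H3, is found at active promoters and enhancers.

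The stretches just before the start of each gene are shown because the strongest Kit signal lay around its start. They are the 250 bases upstream on the plus strand in RefSeq's GRCm38.p6, chr5:75574737-75574986 for Kit and chr1:194938571-194938820 for Cd34, a numbering that differs from the mm9 positions used elsewhere. Capitals mark matches, on either strand, to GATAA (bound by GATA factors), CANNTG (the E box), TGTGGT or its variant TGCGGT (RUNX), GGGCGG (the GC box), GAGGAA (PU.1) and CCGGAA (the ETS family).
Kit: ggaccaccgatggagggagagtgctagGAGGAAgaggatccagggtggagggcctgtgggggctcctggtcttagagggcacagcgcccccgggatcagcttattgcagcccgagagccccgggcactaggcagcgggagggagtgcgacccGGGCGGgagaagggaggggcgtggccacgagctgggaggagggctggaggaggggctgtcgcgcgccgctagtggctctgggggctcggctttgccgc
Cd34: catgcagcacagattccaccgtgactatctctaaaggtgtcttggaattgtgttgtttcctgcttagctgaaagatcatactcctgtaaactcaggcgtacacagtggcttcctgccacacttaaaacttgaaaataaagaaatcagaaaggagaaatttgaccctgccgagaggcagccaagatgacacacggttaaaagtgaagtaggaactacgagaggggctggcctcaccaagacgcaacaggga
The Kit stretch held 1 GGGCGG and 1 GAGGAA on the plus strand, which did not overlap, and its G and C content was 70.8%. Of 27025 upstream stretches of the same length, 1 per gene, 32.9% held GGGCGG and 23.1% held GAGGAA. The Cd34 stretch, at 46.4% G and C, held none of the 7 motifs. The median over all stretches was 52.0%. Across them, CANNTG occurred in 66.0%, GATAA in 23.0%, TGTGGT in 14.2%, CCGGAA in 12.2% and TGCGGT in 5.06%. A match describes letters only.

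Each of the authors' lists compares 2 cell types and gives, per region, 1 signal per library and −log10 of a p-value. The lists reach down to a −log10 p of 0.30 to 0.32, so being listed does not by itself mean that a region differs. Among the Cd34 regions of the CDP and cDC list, 3 had values of 0.46, 0.64 and 0.93. The signals had been scaled per library and per list, so levels were compared only within a list. Each ratio divides 1 group mean by the other, with 1 added to both. The test was limma on log2(signal + 1) over all regions of a list, with Benjamini-Hochberg adjustment, and a region was called at an adjusted p under 0.05. The regions had already been chosen by the authors from these same libraries, so the limma p-values are not independent of that choice. They show how a difference compares with a library spread that limma draws, for each region, toward a trend over the whole list. The spread of a region's own libraries can be larger or smaller, and the SEs use the drawn value. For a single value, the smallest p of an exact two-sided permutation test with 2 libraries per group is 0.333. Merging regions that overlapped or touched across lists gave 6 places at Kit and 4 at Cd34.

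At the start of Kit, H3K27ac was high in MPP, low in CDP, high again in cDC and intermediate in pDC. Kit was grouped with Cd34 as a progenitor surface gene, but at this place both mature cell types lay above the progenitor CDP. The place spans chromosome 5 from 75970601 to 75973650, 3.05 kb around the approximate start, and was the only Kit place listed in all 4 comparisons. In the MPP and CDP list, the region from 75970601 to 75973350 gave signals of 4590 and 3090 in MPP and 231 and 361 in CDP. The groups did not overlap, and MPP lay 12.9-fold above CDP. Over the list, 32.2% of regions had both MPP libraries above both of CDP. In limma the log2 difference of CDP from MPP was -3.70 (SE 0.31, adjusted p = 3.94e-07), which held without any 1 library. Of the 33029 regions listed as higher in MPP, 23, this one included, had a deposited −log10 p at least as large as its 784.

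In the CDP and cDC list, the start region from 75970801 to 75973650 had signals of 299 and 435 in CDP and 3859 and 3774 in cDC. The 2 cDC libraries had near equal signals, though over the list the second-listed was higher by a median log2 of 0.50. Both lay far above both CDP libraries, with a 10.4-fold ratio. Both cDC libraries were above both of CDP at 22.0% of regions of the list. The log2 difference of cDC from CDP was 3.40 in limma (SE 0.37, adjusted p = 5.09e-08), and it was called without each library in turn. Its deposited −log10 p was 720, matched or exceeded by 55 of 32994 regions listed as higher in cDC, itself included. In the CDP and pDC list, the region from 75971001 to 75972850 had 218 and 366 in CDP and 1000 and 1339 in pDC. That is a 3.99-fold higher mean in pDC without overlap (limma log2 difference 2.03, SE 0.33, adjusted p = 0.0030). Libraries did not overlap at 77.5% of all regions of this list, in either direction. Of the regions listed as higher in pDC, 32.1% had at least this ratio. Without the second-listed pDC library the limma adjusted p was 0.0566.

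Between the mature cell types, cDC had more H3K27ac at the Kit start. The region from 75970851 to 75973550 gave 3817 and 3688 in cDC and 1318 and 1730 in pDC, a 2.46-fold ratio without overlap. Over the list, 26.0% of regions had both cDC libraries above both of pDC. The log2 difference of pDC from cDC was -1.31 in limma (SE 0.28, adjusted p = 0.0072). The limma call was lost without either pDC library, with adjusted p-values from 0.0171 to 0.236 when each of the 4 libraries was left out. The order within lists was therefore MPP above CDP, and cDC above pDC above CDP. No list compares MPP with cDC or with pDC.

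**Figure D1:**
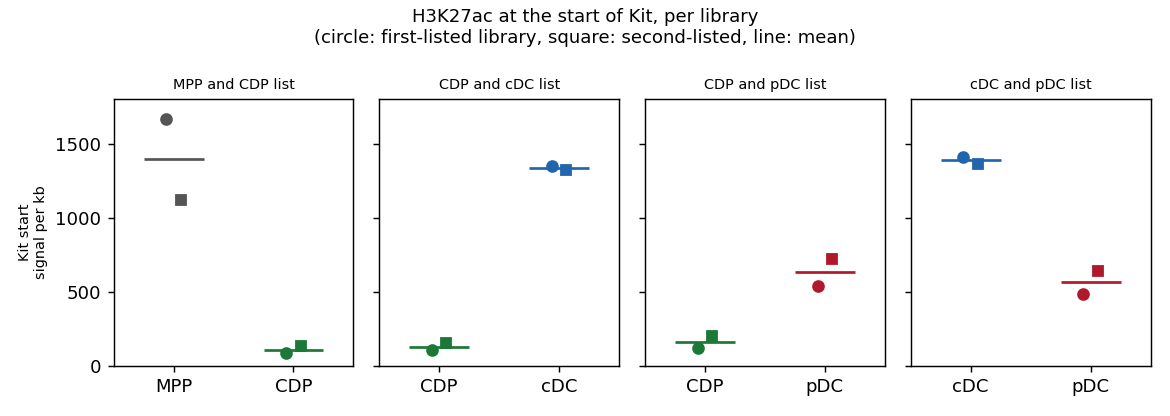
H3K27ac signal per kb at the Kit start in each of the 4 lists (y axis, signal units per kb; x axis, cell type). Points are single libraries and lines are means of 2. Lists were scaled separately, so groups are compared only within a panel: CDP is the low group in each of its 3 lists, and pDC lies below cDC.

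Directly downstream, a narrower shoulder was listed in the MPP and CDP comparison only. From 75973751 to 75975200, 3 kb past the approximate start, MPP had signals of 494 and 505 and CDP had 4 and 21. The MPP libraries were near each other and CDP was near 0, which gave a 37.1-fold ratio (limma log2 difference of CDP from MPP -5.58, SE 0.64, adjusted p = 7.45e-06). The ratio rests on small CDP signals. It was 22.8-fold without the first-listed CDP library and 100.1-fold without the second. With 1 CDP library left, limma has no spread between CDP libraries at this place, so those fits do not test it. Both Kit regions of this list, 2 of 2, were called, against 19.4% of all its regions in either direction. The other 3 lists have no region at this shoulder, which does not show equal signal there.

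Inside the gene, 4 further places were listed in both comparisons that include cDC, and cDC was the higher group at each. They began about 25, 26, 29 and 65 kb past the start, inside the approximate bounds of Kit. Neither list without cDC had a region at any of them. Of the 4, the place at 26 kb, from 75996851 to 75998150, had signals of 89 and 32 in CDP and, in that list, 666 and 825 in cDC. The groups were well apart, with a 12.1-fold ratio (limma log2 difference of cDC from CDP 3.77, SE 0.52, adjusted p = 2.11e-06). It was 22.6-fold without the first-listed CDP library and 8.29-fold without the second.

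The neighbouring places had smaller ratios. At 25 kb, from 75995751 to 75996450, CDP had 41 and 53 and cDC had 184 and 235, a 4.39-fold ratio with no overlap (limma adjusted p = 0.0075). At 29 kb, from 75999851 to 76000950, CDP had 154 and 104 and cDC had 300 and 496, a 3.07-fold ratio with no overlap (limma adjusted p = 0.0160). All 5 Kit regions of this list, start included, were called as higher in cDC, against 7.64% of all regions, all had both cDC libraries above both CDP libraries, against 22.0% over the list, and their median log2 ratio was 2.13, against -0.17 over the list. Leaving out the first-listed CDP library left 2 of the 5 called, and leaving out the other CDP library or the second-listed cDC library left 3. The start and the place at 26 kb were called in every case. The place at 25 kb lost its limma call without either CDP library (adjusted p up to 0.127), and that at 29 kb without either CDP library or the second-listed cDC library (adjusted p up to 0.263).

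At 65 kb, the size of the difference depended on a single library. From 76035851 to 76038200, CDP had signals of 286 and 418 and cDC had 556 and 2188. The second cDC library was 3.94 times the first there, whereas the 2 cDC libraries had 3859 and 3774 at the start. The ratio of cDC to CDP was 3.89-fold with all libraries (limma log2 difference 1.67, SE 0.47, adjusted p = 0.0086). It was 1.58-fold without the second-listed cDC library, with a limma adjusted p of 0.269, and 6.20-fold without the first. Without the first-listed CDP library the limma adjusted p was 0.140. The log2 difference between these 2 libraries was 1.97 at this place, against a median of 0.50 over the whole list. Of the 17316 regions with at least the mean signal of this one, 0.814% had as large a difference in that direction.

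**Figure D2:**
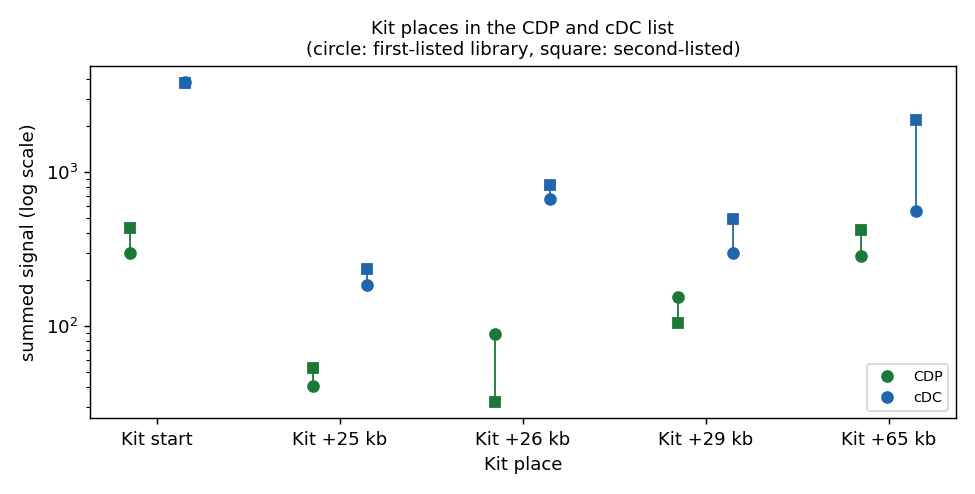
Summed H3K27ac signal (y axis, log scale, signal units) of the 5 Kit places of the CDP and cDC list (x axis), with circles for first-listed and squares for second-listed libraries. Both cDC libraries lie above both CDP libraries at each place, and the cDC pair is farthest apart at 65 kb (556 and 2188).

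The cDC and pDC list covered the same 4 places, with pDC at low signals. At 25 kb, from 75996051 to 75996300, cDC had 71 and 88 and both pDC libraries were listed at 0 (limma adjusted p = 0.0047), so no ratio is given. At 26 kb, from 75996901 to 75997950, cDC had 583 and 730 and pDC had 69 and 25, a 13.7-fold ratio without overlap (limma adjusted p = 0.0010). It was 25.3-fold without the first-listed pDC library and 9.39-fold without the second. As in the comparison with CDP, the ratio at 26 kb was above that at 29 kb.

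At 29 kb, 2 regions were listed. The first, from 75999901 to 76000300, gave 99 and 176 in cDC and 21 and 37 in pDC, a 4.62-fold ratio (limma adjusted p = 0.0311). The second, from 76000501 to 76000950, had 142 and 224 in cDC and 41 and 31 in pDC, a 4.97-fold ratio (limma adjusted p = 0.0150). Neither overlapped between groups, and both lost the limma call without the second-listed cDC library or either pDC library (adjusted p up to 0.207). At 65 kb, from 76035951 to 76038000, cDC had 508 and 2040 and pDC had 52 and 161, an 11.9-fold ratio without overlap (limma adjusted p = 0.0060). Both groups had a larger second-listed library there. The ratio was 4.73-fold without the second-listed cDC library (limma adjusted p = 0.0800) and 19.0-fold without the first. It was 7.87-fold without the first-listed and 24.1-fold without the second-listed pDC library. All 6 Kit regions of this list were called as higher in cDC, against 9.32% of all regions. None overlapped between groups, against 26.0% of regions with both cDC libraries the higher. Of these calls, 3 of 6 were kept without the second-listed cDC library and 3 with either pDC library left out.

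**Figure D3:**
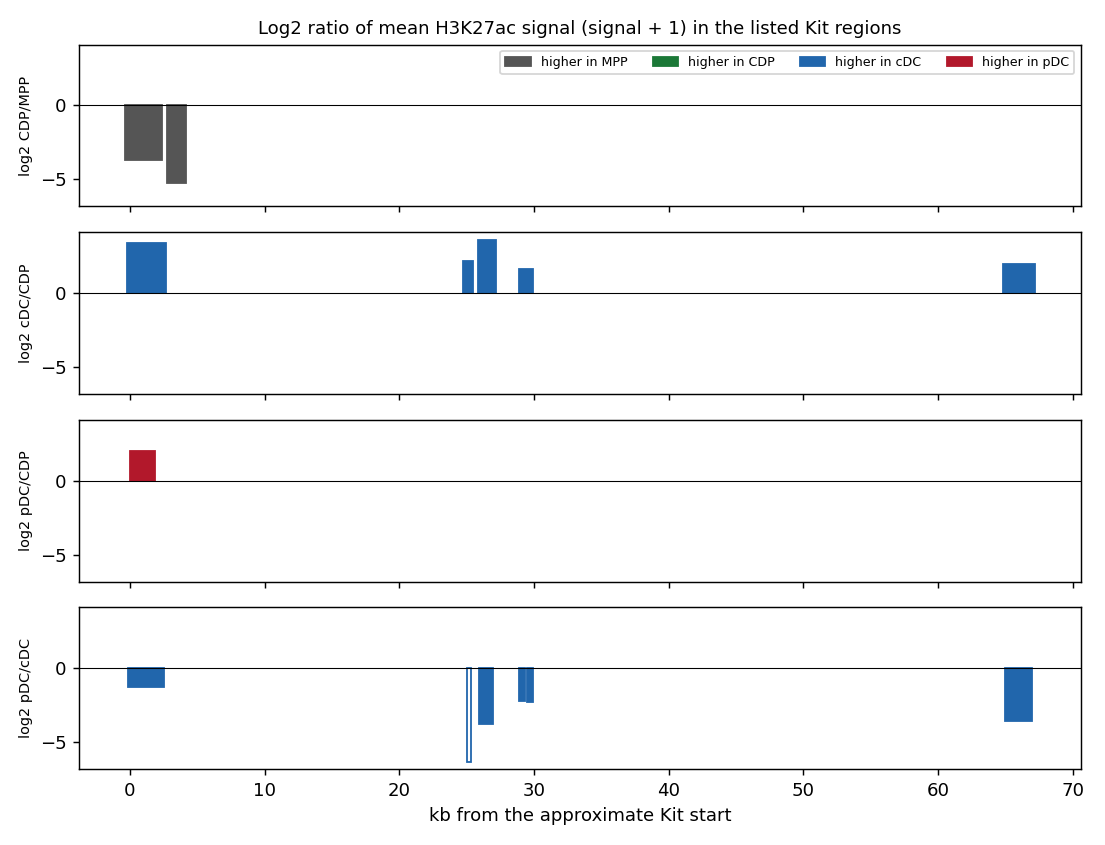
Log2 ratio of group means (signal + 1; y axis) of every listed Kit region, drawn to scale by its distance from the approximate Kit start (x axis, kb), 1 panel per list and coloured by the higher group. The open bar has both pDC libraries at 0, so its height depends on the added 1. The start is listed in all 4 panels, and the places at 25 to 65 kb only where cDC is compared.

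The share of a library's listed Kit signal that lay at the start differed between the mature cell types, and the scaling of a library cancels in this share. In the cDC and pDC list it was 73.1% and 53.1% in the cDC libraries and 87.8% and 87.2% in the pDC libraries, without overlap. Between CDP and cDC the share was 34.4% and 41.7% in CDP and 69.3% and 50.2% in cDC, also without overlap. These are descriptions of 2 libraries each. The shares depend on which regions a list holds. In both lists every Kit place other than the start was higher in cDC, and none of these places was listed where cDC was not compared. The shares carry that choice of regions and are not separate support for a difference between cell types.

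No region upstream of the start was listed. The Kit window begins at 75890000, to cover upstream enhancers, and the 4 lists hold 0 regions that lie before the start. From the start region, the nearest listed region to the left was 258 kb away in the MPP and CDP list, and 416 to 529 kb away in the other lists. A place that is not listed may still carry H3K27ac.

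At Cd34, pDC lay below both CDP and cDC, each in its own list. MPP lay above CDP by less than 2-fold at the main places, and no region passed the test between CDP and cDC. Most of its listed signal lay in 2 places, from 196764501 to 196767450 and from 196768151 to 196770600 on chromosome 1, called the first and second place. Where these lie relative to the exons of Cd34 is not given, since no mm9 gene model was used here. In the MPP and CDP list, the first place, from 196764601 to 196767450, gave 1728 and 1637 in MPP and 812 and 924 in CDP. The groups did not overlap, with a 1.94-fold ratio (limma log2 difference of CDP from MPP -0.96, SE 0.28, adjusted p = 0.0217). This limma call was lost without any 1 of the 4 libraries, with adjusted p-values from 0.0864 to 0.194.

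The second place, from 196768151 to 196770600, gave 1267 and 1488 in MPP and 684 and 896 in CDP. That is a 1.74-fold ratio without overlap, which did not pass the test (limma log2 difference -0.81, 95% interval -1.42 to -0.20, adjusted p = 0.0567). Of the 4 Cd34 regions of this list, 1 was called, against 19.4% of all its regions in either direction. None overlapped between groups, while 32.2% of all regions of the list had both MPP libraries above both of CDP. A further short place from 196772951 to 196773250 had 112 and 93 in MPP and 59 and 47 in CDP (limma adjusted p = 0.249). A region at the left edge of the window, from 196755001 to 196755250, had 74 and 70 in MPP and 25 and 6 in CDP (limma adjusted p = 0.0803). Its ratio was 4.42-fold, 10.4-fold without the first-listed and 2.81-fold without the second-listed CDP library. A further listed region lay 0.451 kb outside the window on that side.

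From CDP to cDC, no Cd34 region passed the test. The list cut the first and second places into 2 and 4 touching regions with opposite directions. Summed over the first place, CDP had 741 and 913 and cDC had 1123 and 1007, a 1.29-fold higher mean in cDC without overlap. Summed over the second place, CDP had 797 and 1041 and cDC had 964 and 721, which overlap. In both sums the second-listed cDC library was the lower, though over the list it was higher by a median log2 of 0.50. The short place from 196772751 to 196773100 had 111 and 90 in CDP and 70 and 30 in cDC, a 1.99-fold ratio (limma adjusted p = 0.265). That ratio was 3.27-fold without the first-listed cDC library and 1.43-fold without the second. Libraries did not overlap at 3 of the 7 regions, 2 with CDP the higher, against 36.0% of all regions, and 1 with cDC the higher, against 22.0%. In all, 0 of 7 Cd34 regions were called in limma, and 0 had an unadjusted p under 0.05, while 22.0% of all regions of the list were called in either direction. A descriptive rule (groups at least 2-fold apart, −log10 p from the authors of 10 or more, and separate libraries) also kept 0, against 16.2% (higher in CDP) and 9.10% (higher in cDC) over the list. Their median log2 ratio of cDC to CDP was -0.14, against -0.17 over the list. The largest of them, from 196764501 to 196765800, had a limma log2 difference of 0.40 with a 95% interval of -0.37 to 1.17; the test does not show that the 2 cell types are alike there. Over all 7 regions the sums were 1649 and 2044 in CDP and 2157 and 1758 in cDC.

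In pDC, both Cd34 places fell. Against CDP, the first place, from 196764701 to 196765850, had signals of 583 and 768 in CDP and 86 and 106 in pDC, 6.97-fold lower in pDC (limma log2 difference of pDC from CDP -2.80, SE 0.33, adjusted p = 8.65e-04). The second, from 196768451 to 196770500, had 668 and 906 in CDP and 155 and 218 in pDC, 4.20-fold lower in pDC (limma log2 difference -2.08, SE 0.32, adjusted p = 0.0024). The groups were far apart at both, and both calls held without each library. That is 2 of 2 Cd34 regions called as higher in CDP, against 19.7% of all regions of the list. Libraries did not overlap at 77.5% of all its regions, in either direction. Of the regions listed as higher in CDP, 12.7% had at least the ratio of the first place and 21.6% at least that of the second. The 1 Kit region of this list went the other way and was called as higher in pDC, against 25.2% of all regions.

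Against cDC, the first place, from 196764601 to 196765850, gave 1073 and 936 in cDC and 104 and 114 in pDC, a 9.14-fold ratio (limma log2 difference of pDC from cDC -3.19, SE 0.36, adjusted p = 4.20e-04). The second, from 196769301 to 196770550, had 668 and 531 in cDC and 108 and 191 in pDC, a 3.99-fold ratio (limma log2 difference -2.04, SE 0.43, adjusted p = 0.0063). Neither place overlapped between groups, while 26.0% of all regions of the list had both cDC libraries the higher. The first kept its call without each library, and the second lost it without the first-listed cDC or the first-listed pDC library (limma adjusted p up to 0.0741). Both were called as higher in cDC, as were the Kit regions of this list, against 9.32% of all its regions. After scaling the 4 libraries to the same autosomal total, the ratio of the summed Cd34 signal of cDC to pDC was 8.94-fold in place of 6.18-fold.

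**Figure D4:**
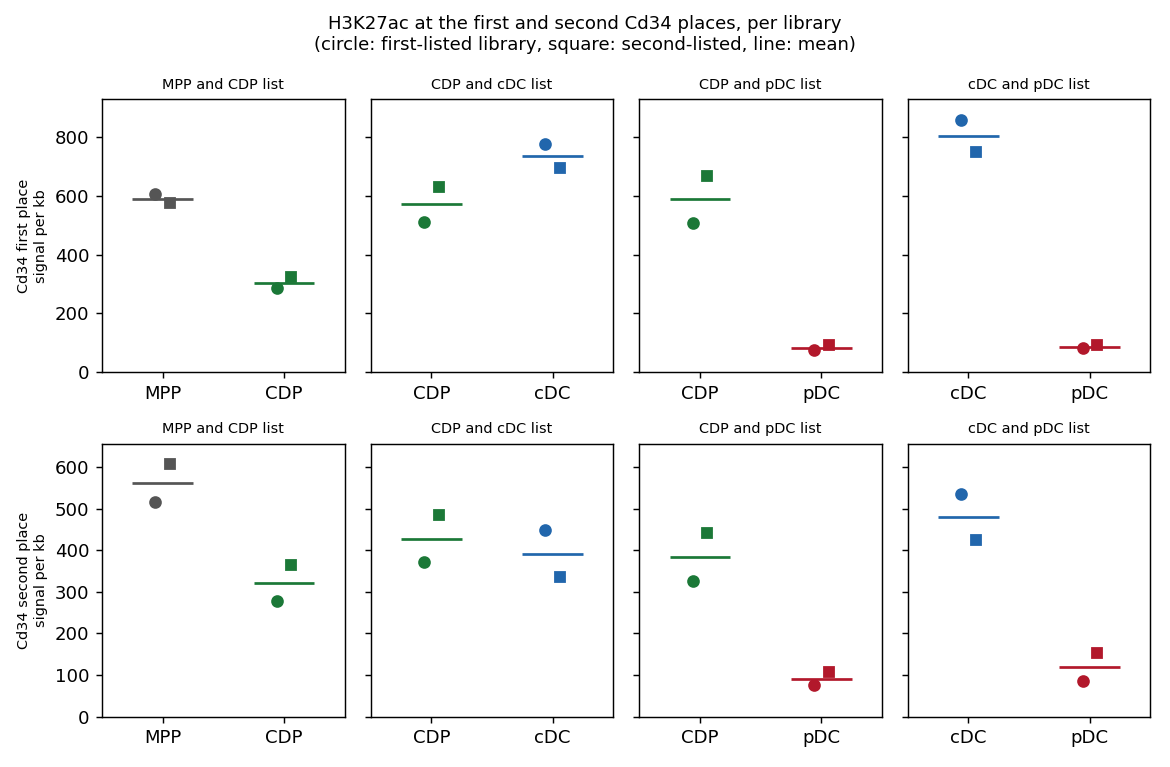
H3K27ac signal per kb (y axis, signal units per kb) at the first and second Cd34 places in each of the 4 lists, by cell type (x axis), with points for single libraries and lines for means of 2. Lists were scaled separately, so groups are compared within a panel. MPP lies above CDP, and pDC is lowest in both of its lists. The cDC libraries lie above those of CDP at the first place and overlap them at the second. Between CDP and cDC, no region was called in limma at either place. Between MPP and CDP, the first place was called and the second was not.

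The balance between the 2 genes differed between the cell types of each list. The signal per kb at the Kit start was divided by that at the first Cd34 place within each library, so that the scaling of the library cancels. This ratio was 2.75 and 1.96 in the MPP libraries and 0.295 and 0.405 in the CDP libraries of the same list. Between CDP and cDC it was 0.205 and 0.242 in CDP and 1.75 and 1.91 in cDC. Between CDP and pDC the ratio was 0.232 and 0.296 in CDP and 7.23 and 7.85 in pDC. Between cDC and pDC it was 1.65 and 1.82 in cDC and 5.87 and 7.03 in pDC. The 2 groups did not overlap in any list. This ratio recombines signals already compared at the 2 places, so it is not separate support for a difference between cell types. How often other pairs of regions separate in this way was not computed. CDP had less signal at the Kit start than at the Cd34 place in each of its lists, and pDC had the higher ratio in both of its lists. The bounds of the regions differ between lists, and the CDP libraries, which are the same in 3 lists, gave 0.205 to 0.405.

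**Figure D5:**
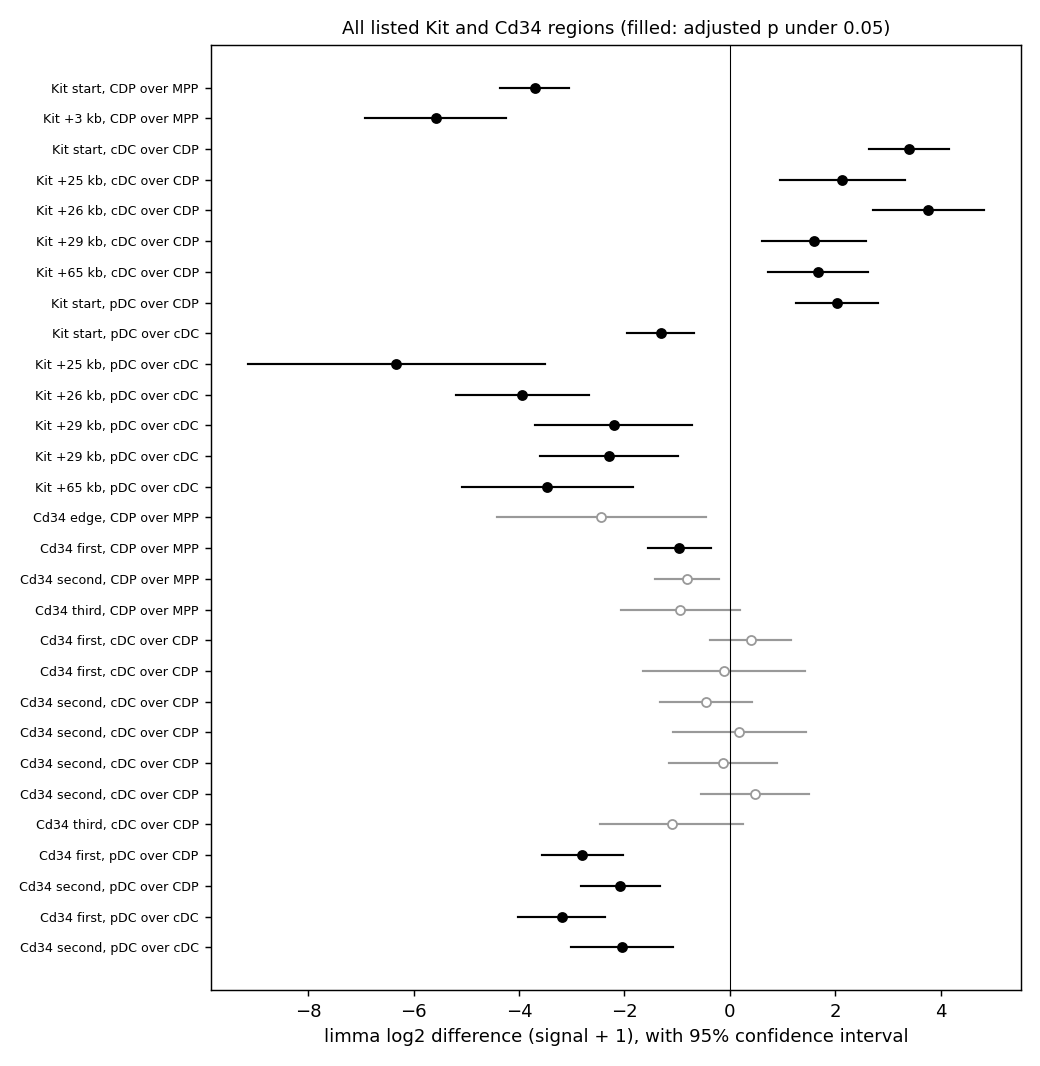
Limma log2 differences on the scale of signal + 1 (x axis) with 95% confidence intervals for all 29 listed regions (y axis; place and the 2 cell types), filled where the adjusted p is under 0.05. All 14 Kit regions and 5 of 15 Cd34 regions are filled, against 29.8% of all regions of the 4 lists, a share that the Cd34 count is close to. The regions lie at 6 Kit and 4 Cd34 places, several of them listed more than once. Because the lists also share libraries, the regions are not independent counts. The value of Kit +25 kb for pDC over cDC depends on the added 1, since both pDC libraries are at 0.

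Libraries of a cell type differed in level over whole lists, by medians of -0.31 (second-listed minus first-listed, log2) for MPP, 0.19 to 0.23 for CDP, 0.50 for cDC and 0.17 to 0.19 for pDC. Their part in the results was not tested beyond leaving out each library and equal totals. Because the signals had been scaled, read depth is unknown.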

How the data were processed

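H3K27ac was mapped by ChIP-seq on sorted cells, with chromatin sheared to 200 to 400 bp, per the labels' protocols. Per the submitters' processing notes, the authors used BWA 0.6.1 and mm9. The series title names THOR, while the sources used here do not give the calling settings. The authors' deposited lists give whole-number signals scaled per library and per list, and −log10 p per region. The list names gave the order of cell types. As a check, in regions with the same bounds in 2 lists, a library kept 1 factor (0.879 to 1.24) between its values, with a log2 SD up to 0.059, against 0.456 or more for other pairs. MPP is in 1 list only. The values carry no replicate number, so the text names libraries by their place in the list. The 4 input and 4 RNA samples were left out.

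Members and lists were chosen with earlier results of these data known. Signals were compared per region and summed per place and locus. Limma 3.58.1 (R 4.3.3, intensity trend) was fitted to all regions of a list on log2(signal + 1) and tested on simulated data. Every member was tested without a filter. All 29 regions were counted and most are named, more than the rule asked for (the strongest, the one at the gene start, and the steepest of at least 500 bp). Alternatives were equal autosomal totals, pseudocounts of 0.5 and 5, a minimum mean signal of 50, a deposited −log10 p of at least 10, a length of at least 500 bp, leaving out each library, and the combined rule. Coordinates are 1-based. Python 3.11.15 was used for the rest.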

Additional observations from a re-analysis of the deposited data

How the results depend on the processing

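Of the 8 log2 ratios of summed signal (2 loci in 4 lists), 7 kept their direction under every alternative run. The eighth, Cd34 for cDC over CDP, was 0.08 with overlapping libraries and -0.071 to 0.25 with each library left out. Equal autosomal totals moved pDC over cDC from -1.80 to -2.28 at Kit and from -2.63 to -3.16 at Cd34. Leaving out each library gave -4.20 to -3.50 (Kit) and -1.03 to -0.79 (Cd34) for CDP over MPP, 2.54 to 2.97 (Kit) for cDC over CDP, 1.67 to 2.42 and -2.60 to -2.14 for pDC over CDP, and -2.02 to -1.58 and -2.91 to -2.39 for pDC over cDC. No Cd34 region of the CDP and cDC list had a −log10 p of at least 10, so that alternative gave no value.

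With each library left out, the lone library being assumed to vary like the others, limma called 2 to 3 of the 6 regions in the MPP and CDP list (3 with all), 2 to 5 of 12 in CDP and cDC (5), 2 to 3 of 3 in CDP and pDC (3) and 4 to 7 of 8 in cDC and pDC (8). Over all regions it called 4939 to 9531, 7012 to 16780, 16116 to 21033 and 14133 to 23738, against 11793, 16917, 31403 and 21605. Equal totals raised the last to 32577, changed the split of higher and lower calls in the cDC and pDC list from 6178 and 15427 (cDC, pDC) to 18385 and 14192, and moved the list's median log2 difference from 0.22 to -0.26. In the CDP and pDC list the split went from 13804 and 17599 (CDP, pDC) to 21882 and 15790, and the median from 0.03 to -0.27. In the MPP and CDP list it went from 6675 and 5118 to 6483 and 7105, and in the CDP and cDC list from 11045 and 5872 to 11037 and 8456. No called Kit or Cd34 region changed direction. The cause was not tested. No paired analysis was possible because the values carry no replicate numbers. The depth is unknown, so no counting limit can be given.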
